A study of Danio rerio with 8 samples.

Results

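In livers of 7-day zebrafish larvae, 47 genes had at most 20 reads in all wild-type (WT) libraries together and at least 10 reads in every library from the transgenic line lf:YAP. They were chosen by these raw counts alone, out of 28599 named genes in the count table. The gene yap1 was left out, and so were symbols of 8 families given by their first letters, which removed slc5a9 and SLC7A1. The members include notum2, which encodes a secreted enzyme of the Notum family, nos2a, an inducible nitric oxide synthase, prkacba, a catalytic subunit of protein kinase A, and btk, a Tec family tyrosine kinase. The lf:YAP group held 4 libraries and the WT group 4, each made from the pooled livers of 10 larvae at 7 days of age. In lf:YAP larvae YAP is hyperactivated in hepatocytes only, per the labels, and no treatment was given to either group. Larvae of both groups were raised in multiwell plates from day 3, and total RNA was sequenced. The labels do not give the promoter of the transgene, and they do not state that each pool is a clutch of its own. Every p-value below therefore sets the difference between the groups against the spread among these pools. Some of that spread may be technical.

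YAP is a transcriptional coactivator and the main output of the Hippo kinase pathway. When the Hippo kinases are active they phosphorylate YAP and keep it out of the nucleus, and when they are inactive YAP binds TEAD factors on DNA and raises the transcription of genes of growth and survival. In the liver, Hippo signalling is known for its control of organ size and of the identity of hepatocytes and bile duct cells.

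Total counts over named genes ranged from 2668432 to 3170508 in lf:YAP libraries and from 2853543 to 3797709 in WT libraries, so 1 read stood for less than 1 CPM (reads per 1000000 counted reads). The defining hepatocyte marker fabp10a had 6596 to 9821 CPM in lf:YAP livers and 2443 to 3030 CPM in WT livers, and tfa had 1365 to 2440 CPM in lf:YAP livers and 1615 to 2015 CPM in WT livers. The fibrinogen gene fgb had 275 to 724 CPM in lf:YAP livers and 924 to 1249 CPM in WT livers. All 3 hepatocyte markers were thus detected in every library, while fabp10a was higher and fgb lower in each lf:YAP library than in any WT library. The gene of YAP itself, yap1, had 630, 1011, 300 and 1302 CPM in lf:YAP replicates 1 to 4, against 23.7, 23.6, 16.7 and 20.8 CPM in WT. The order of the lf:YAP libraries by yap1 is used below. These are bulk samples, so more cells of a type and more RNA per cell cannot be told apart for any gene described here.

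The name of the group holds in part. The sum over the 4 lf:YAP libraries ran from 48 to 671 reads with a median of 95, and the WT sum ran from 0 to 20 with a median of 14. Only notum2 had no read in any WT library. In WT, 4 members had a sum of 4 or less, 21 had a sum of 15 or more, and 33 had a read in every library. A majority were therefore detected in WT at a low level rather than absent. Single lf:YAP libraries held 2.54 to 96.7 CPM of a member, and single WT libraries held at most 3.05 CPM. CPM is not corrected for transcript length, so these ranges do not rank one gene's level against another's.

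All 47 members had every lf:YAP library above every WT library in CPM. That separation is close to what the choice of members requires, and 12.3% of the 8369 genes tested showed it. Likewise 45 members passed the count filter and all 45 were called higher at an adjusted p under 0.05 (edgeR quasi-likelihood test), beside 11.1% of all tested genes, and nothing is read from that count. The members enpp4 and pole did not pass the filter. The log2 fold changes of the 45 tested members, lf:YAP over WT, are given as a description only and ran from 1.32 to 9.10 with a median of 2.75. The median was 0.01 over all tested genes and 1.09 over the other genes called higher. With total counts alone as the scale, the median of all genes moved to 0.32, a shift that applies to each fold change below. A log2 fold change of 4 or more was found for 10 members, 23 lay from 2 to under 4, and 12 lay under 2.

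Among all 17739 named genes with a WT sum of 20 or less, 49 had 10 or more reads in each lf:YAP library, which is 0.276%. In the mirror direction, 41 of 17751 genes with an lf:YAP sum of 20 or less had 10 or more reads in each WT library, which is 0.231%. The difference between these shares was not tested.

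Members sat close to both limits. Just inside the WT limit were aqp7 with a WT sum of 20, and rsu1 and zgc:153184 with 19. Just outside it, only genes whose groups did not overlap in CPM were looked for. Among these were lin37 and scamp4 with a WT sum of 21 and lf:YAP sums of 79 and 77. cadm2a had a WT sum of 22 and an lf:YAP sum of 121. The genes adamts12, btr02 and zgc:77880 missed the other limit, each with 9 reads in lf:YAP replicate 3 and lf:YAP sums of 146, 98 and 90. Of the members, 14 had exactly 10 reads in their lowest lf:YAP library, and for 11 of these that library was lf:YAP replicate 3.

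**Figure D1:**
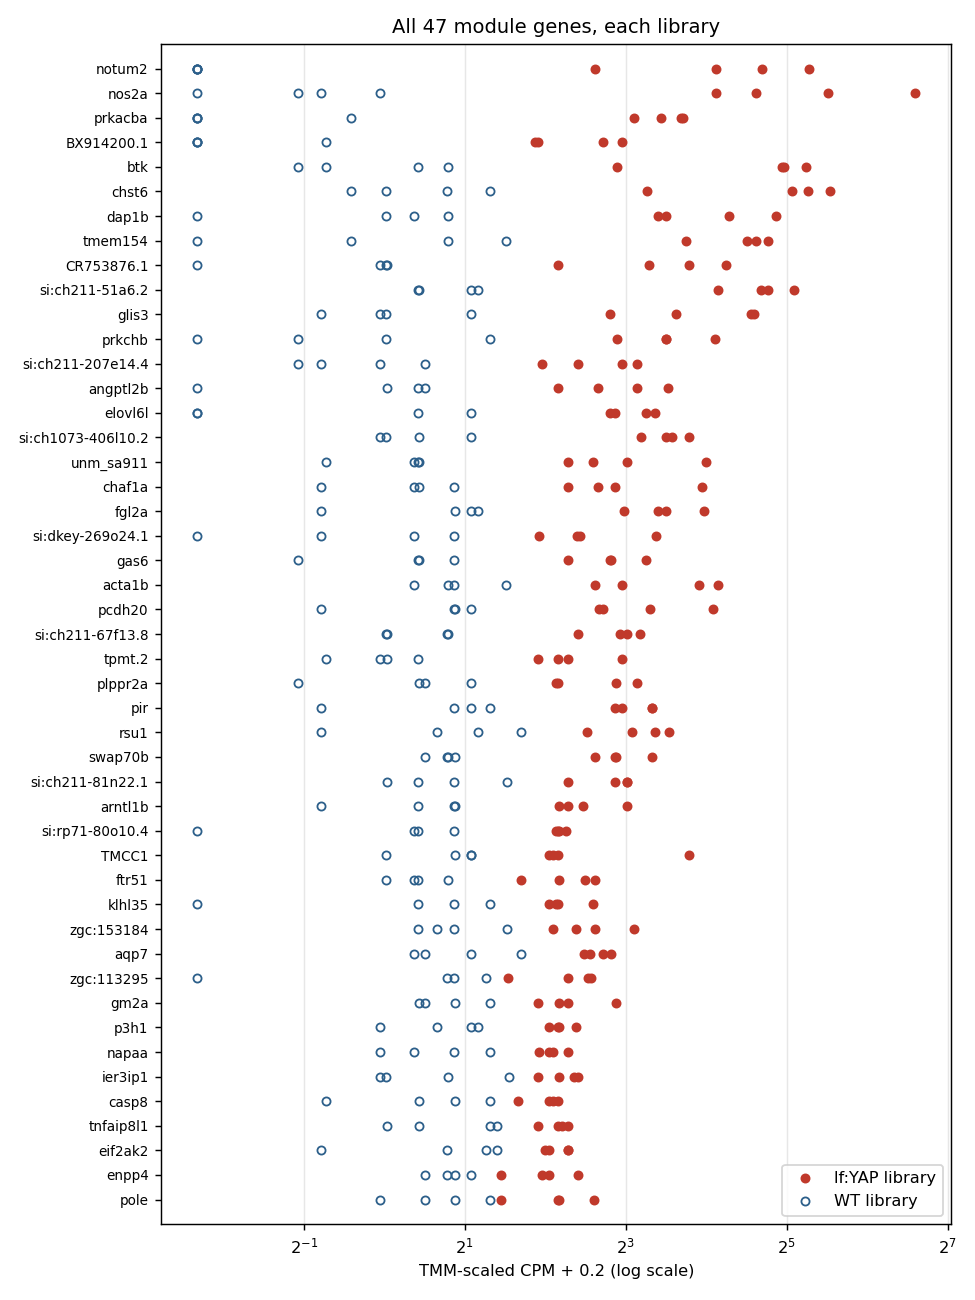
Every module gene in every library, with lf:YAP libraries as filled points and WT libraries as open points. The axis is TMM-scaled CPM plus 0.2 on a log scale, and genes run down the page by falling log2 fold change. enpp4 and pole, which were not tested and have no fitted value, stand at the bottom. The groups are far apart for the upper 10 genes, with log2 fold changes of 4 or more, and lie close together at the bottom, where the WT libraries reach up to 3.05 CPM.

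The strongest of the secreted proteins was notum2. Enzymes of the Notum family are carboxylesterases that remove the lipid from Wnt proteins outside the cell and so inactivate them. The counts of notum2 were 48, 101, 14 and 156 in lf:YAP replicates 1 to 4, against 0 in each WT library. Its mean was 21.8 ± 13.7 CPM in lf:YAP livers (SD, n = 4). With the WT libraries together given a floor of 3 reads, it was 91.9-fold higher in lf:YAP. The exact 95% interval for the ratio of totals had a lower limit of 74.3 and covers counting error only. The fitted log2 fold change of 9.10 depends on the prior count. The lf:YAP libraries themselves were far apart, with the highest 6.44 times the lowest, and the highest and lowest were also the highest and lowest for yap1.

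The inducible nitric oxide synthase gene nos2a makes nitric oxide from arginine and is known from activated macrophages and inflamed hepatocytes in mammals. It had 48, 381, 57 and 185 reads in lf:YAP libraries and 2, 1, 0 and 1 in WT libraries. This is a mean of 45.97 ± 35.94 CPM in lf:YAP and 0.355 ± 0.316 CPM in WT (SD, n = 4 each). On the log2 scale the fold change was 6.89 ± 0.91 (SE). Replicate 2 alone gave 381 of its 671 lf:YAP reads, and without that library or any other single library the log2 fold change stayed between 6.23 and 7.43. Unlike notum2, its lowest library was lf:YAP replicate 1, not replicate 3.

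The catalytic subunit gene prkacba had 36, 50, 25 and 34 reads in lf:YAP libraries, against 0, 0, 0 and 2 in WT libraries. It was the most even of the markers, with 11.2 ± 2.1 CPM in lf:YAP (SD, n = 4) and a highest library only 1.54 times the lowest. The ratio of lf:YAP to WT totals was 62.6, with a 95% interval of 17.0 to 522 that covers counting error only. Both WT reads lay in replicate 4, and without that library its log2 fold change was 8.05 in place of 5.70.

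The tyrosine kinase gene btk, known in mammals for B cell receptor signalling and also found in myeloid cells, had 87, 120, 17 and 152 reads in lf:YAP libraries and 4, 3, 1 and 1 in WT libraries. Its mean was 26.6 ± 13.3 CPM in lf:YAP and 0.838 ± 0.598 CPM in WT (SD, n = 4 each). The log2 fold change was 5.01 ± 0.63 (SE). Replicate 3 stood well below the other lf:YAP libraries, at 7.25 CPM against 30.5 to 37.5 CPM, and still above every WT library.

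**Figure D2:**
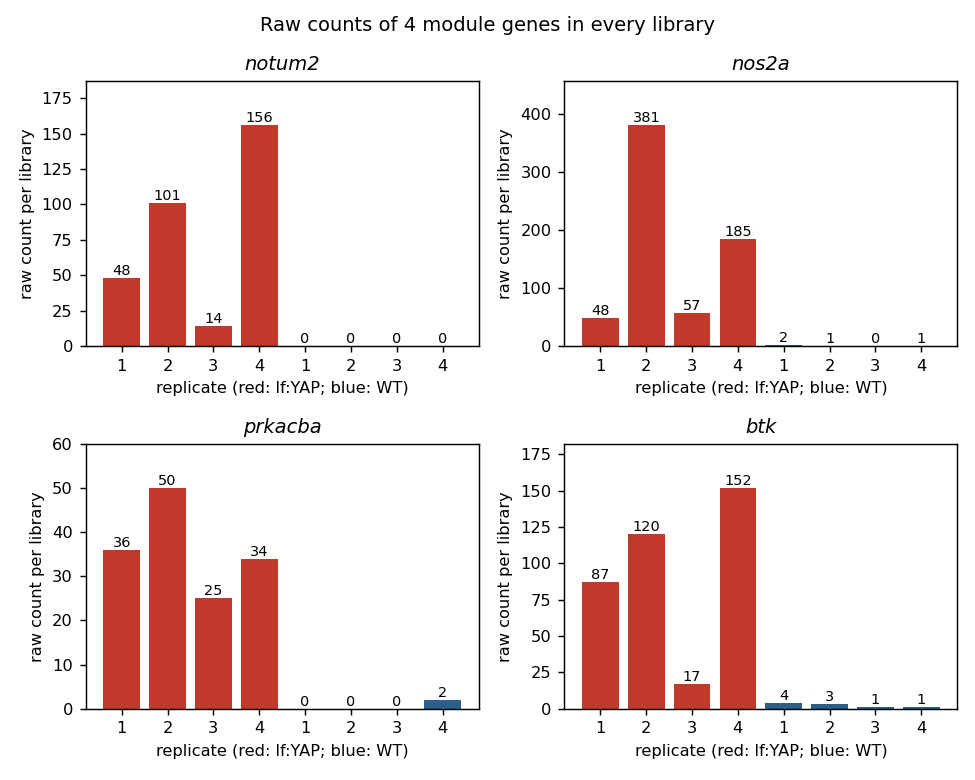
Raw read counts of notum2, nos2a, prkacba and btk in each library, with the 4 lf:YAP replicates in red on the left of each panel and the 4 WT replicates in blue on the right. Bars start at 0 and carry their counts. notum2, prkacba and btk are lowest in replicate 3 among the lf:YAP bars, nos2a stands out in replicate 2 with 381 reads, and WT bars are at 4 reads or fewer.

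Of the other genes of secreted and cell surface proteins, tmem154, a transmembrane protein gene whose role is not described here, had 68, 89, 31 and 110 reads in lf:YAP libraries and 4, 7, 0 and 2 in WT libraries. Its log2 fold change was 4.21 ± 0.47 (SE). gas6, which encodes a ligand of the TAM receptor tyrosine kinases and is involved in the uptake of dying cells, had 19, 27, 11 and 38 reads in lf:YAP and 3, 3, 4 and 1 in WT. The fibrinogen-like gene fgl2a had 31, 41, 18 and 63 reads in lf:YAP and 1, 5, 5 and 6 in WT. The angiopoietin-like gene angptl2b had 17, 34, 10 and 46 reads in lf:YAP and 0, 3, 3 and 3 in WT. The log2 fold changes of these secreted factors were 2.80 ± 0.42 for gas6, 2.89 ± 0.38 for fgl2a and 3.24 ± 0.51 for angptl2b. In all 3, lf:YAP replicate 4 was highest and replicate 3 lowest.

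The protocadherin gene pcdh20, which encodes a cell adhesion protein, followed another order, with 47, 38, 15 and 25 reads in lf:YAP libraries and 1, 5, 4 and 6 in WT libraries. Its highest lf:YAP library was replicate 1, at 16.8 CPM. plppr2a, of the phospholipid phosphatase-related membrane proteins, had 20, 34, 10 and 17 reads in lf:YAP and 3, 5, 3 and 1 in WT. aqp7, an aquaglyceroporin that passes water and glycerol, was the weakest tested member of this group. It had 15, 27, 15 and 23 reads in lf:YAP and 8, 5, 3 and 4 in WT, a log2 fold change of 1.75 ± 0.35. The ectonucleotide pyrophosphatase family gene enpp4 had 11, 10, 12 and 15 reads in lf:YAP and 5, 4, 3 and 6 in WT, and its mean was 3.83 ± 1.06 CPM in lf:YAP and 1.58 ± 0.28 CPM in WT (SD, n = 4 each).

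Signalling and cytoskeletal genes, with klhl35 and ftr51 placed among them, formed a second group of 9, with a median log2 fold change of 2.39. Beside prkacba and btk it held prkchb, a protein kinase C of the eta type, with 31, 67, 17 and 45 reads in lf:YAP and 0, 6, 2 and 1 in WT. Its log2 fold change was 3.82 ± 0.54 and was 4.93 without WT replicate 2, which held 6 of its 9 WT reads. The guanine nucleotide exchange factor gene swap70b, which acts on actin at membranes, had 7.53 ± 1.65 CPM in lf:YAP and 1.48 ± 0.18 CPM in WT (SD, n = 4 each). rsu1, of the integrin-linked kinase complex at focal adhesions, had 8.83 ± 2.55 CPM in lf:YAP and 1.71 ± 1.12 CPM in WT. Its counts were 23, 45, 13 and 41 in lf:YAP and 1, 8, 5 and 5 in WT. eif2ak2, the kinase PKR that responds to double-stranded RNA by slowing translation, had the smallest fitted log2 fold change of all members, 1.32 ± 0.41. Its counts were 13, 15, 11 and 16 in lf:YAP against 1, 4, 6 and 8 in WT.

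The kelch-like gene klhl35 had 11, 23, 10 and 17 reads in lf:YAP and 6, 3, 4 and 0 in WT. ftr51, of the fish finTRIM family of ubiquitin ligase-like proteins, had 12, 12, 14 and 22 reads in lf:YAP and 4, 3, 2 and 4 in WT. Both lay just under 2 on the log2 scale, at 1.94 ± 0.53 for klhl35 and 1.97 ± 0.39 for ftr51. finTRIM genes are a large family of similar copies, so reads of ftr51 may be shared with relatives.

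The skeletal actin gene acta1b had 21, 69, 14 and 60 reads in lf:YAP libraries and 4, 7, 4 and 4 in WT libraries, a log2 fold change of 2.78 ± 0.43. Its near-identical partner acta1a, which is no member, had 59, 97, 10 and 116 reads in lf:YAP and 7, 7, 14 and 20 in WT, and its lf:YAP replicate 3 lay within the WT range. Reads of both copies may have been split in the counting, so neither can be given its own value with certainty. Of 27 tested markers other than acta1b, 1 rose, acta1a, and 8 fell (29.6%, beside 10.5% of all tested genes), with a median log2 fold change of -1.14. The number that fell was 2 without lf:YAP replicate 2, 3 without WT replicate 2, 5 without WT replicate 3 and 19 without lf:YAP replicate 3. The summed level of the muscle list was 287 to 1582 CPM in lf:YAP and 1133 to 2342 CPM in WT, with ckma at 51 to 148 reads in lf:YAP and 107 to 207 in WT. How much muscle tissue in the dissections enters the acta1b value was not tested.

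For btk and nos2a, which are known from immune cells in mammals, the markers of such cells were examined beside them. Of 30 macrophage markers, 28 were in the table and 3 passed the filter. lygl1, a lysozyme-like gene, rose by 2.07 ± 0.31 on the log2 scale (adjusted p = 0.000564, edgeR) and slc37a2, of the glucose-6-phosphate transporter family and known from macrophages, rose by 1.56 ± 0.23 (adjusted p = 0.000564). The summed CPM of the list was 83.5, 73.4, 62.7 and 111 in lf:YAP replicates 1 to 4, and 32.8 to 38.1 in WT. Its defining genes were low, with mpeg1.1 at 11, 10, 7 and 28 reads in lf:YAP and 2, 3, 2 and 7 in WT, and csf1ra at 17, 32, 4 and 71 in lf:YAP and 4, 8, 6 and 9 in WT. Most of the untested markers had more reads in lf:YAP when summed over each group. Among them aif1l had 66 reads in lf:YAP and 17 in WT, marco 47 and 16, and ptprc 39 and 17. Likewise mfap4 had 20 and 6, and spi1a 18 and 5. A few went the other way: spi1b had 16 reads in lf:YAP and 17 in WT, csf1rb had 10 and 20, and mpeg1.2 had 4 and 8. Of the list, 1 gene was at 0 in every library. Without lf:YAP replicate 3, which had the lowest lf:YAP sum, 4 macrophage markers were called higher. The part of macrophages in the btk and nos2a values was not tested.

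Lymphoid markers were scarce in both groups. None of the 28 in the table passed the filter, 7 were at 0 in every library, and the summed CPM was 4.44 to 11.5 in lf:YAP and 6.11 to 11.0 in WT. The B cell gene cd79a had 0 reads in lf:YAP and 2 in WT. The neutrophil genes mpx and lyz had 12 and 3 reads summed over lf:YAP libraries, and 5 and 2 over WT libraries. Of 7 tested genes of the neutrophil list, 1 rose, vamp8, by 1.51 ± 0.34, and 1 fell, pnp5a, by 0.72 ± 0.23. Each is 14.3% of the list, near the 11.1% higher and 10.5% lower among all tested genes. The pnp5a call was lost without any 1 of 6 libraries, among them WT replicate 3 (adjusted p = 0.0998) and lf:YAP replicate 4 (0.0621). The summed CPM of that list was 647 to 1497 in lf:YAP and 1587 to 1962 in WT, most of it from pnp5a. Without pnp5a it was 69.6 to 311 in lf:YAP and 95 to 130 in WT. The part of neutrophils in the vamp8 and pnp5a values was not tested.

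Enzymes and proteins of metabolism are encoded by 7 members. chst6, a Golgi sulfotransferase of the type that sulfates keratan chains, had 93, 151, 22 and 187 reads in lf:YAP and 6, 4, 2 and 2 in WT. This gave 31.8 ± 15.8 CPM in lf:YAP and 1.29 ± 0.78 CPM in WT (SD, n = 4 each), and the log2 fold change was 4.65 ± 0.58 (SE). Its lf:YAP libraries were ordered as for yap1. The fatty acid elongase gene elovl6l had 26, 28, 16 and 41 reads in lf:YAP and 0, 3, 0 and 7 in WT. Its log2 fold change was 3.22 ± 0.54, and without WT replicate 4, which held most of its WT reads, 4.28. Of the rest, tpmt.2, of the thiopurine methyltransferases, had 21, 14, 10 and 19 reads in lf:YAP and 2, 3, 1 and 3 in WT.

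pir encodes pirin, an iron-binding nuclear protein, and was one of the even members, with 21, 28, 23 and 40 reads in lf:YAP and 6, 1, 4 and 7 in WT. gm2a, the activator protein for the breakdown of the ganglioside GM2 in lysosomes, had 12, 14, 11 and 29 reads in lf:YAP and 3, 6, 3 and 6 in WT. p3h1, a prolyl 3-hydroxylase that modifies collagen chains in the endoplasmic reticulum, had 14, 17, 10 and 16 reads in lf:YAP and 5, 2, 5 and 5 in WT. These were modest differences on the log2 scale, 2.41 ± 0.36 for pir, 1.63 ± 0.38 for gm2a and 1.51 ± 0.36 for p3h1.

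The 4 nuclear members comprise a pair of transcription factors and a pair of genes of DNA replication. glis3, a Krüppel-like zinc finger factor known for its role in pancreatic beta cells, kidney and thyroid in mammals, had 34, 94, 16 and 95 reads in lf:YAP and 1, 2, 2 and 7 in WT. Its mean was 16.6 ± 8.5 CPM in lf:YAP and 0.970 ± 0.662 CPM in WT (SD, n = 4 each). The log2 fold change was 3.98 ± 0.52, and 4.61 without WT replicate 4. arntl1b, which RefSeq lists as bmal1b, encodes a copy of BMAL1, the positive arm of the circadian clock, and had 12, 21, 11 and 32 reads in lf:YAP and 1, 3, 4 and 6 in WT.

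chaf1a encodes the large subunit of chromatin assembly factor 1, which deposits histones behind the replication fork. It had 17, 28, 11 and 62 reads in lf:YAP and 3, 1, 4 and 4 in WT, and a log2 fold change of 2.97 ± 0.49. The gene of another subunit of that complex, chaf1b, which is no member, had 4, 6, 2 and 8 reads in lf:YAP and 1, 0, 1 and 3 in WT, too few for the filter. pole, the catalytic subunit of DNA polymerase epsilon, had 12, 10, 10 and 24 reads in lf:YAP and 6, 2, 3 and 6 in WT. For both members lf:YAP replicate 4 was the highest library, at 15.3 CPM for chaf1a and 5.92 CPM for pole.

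Genes linked to cell death were few and mostly weak. dap1b, a death-associated protein gene, had 54, 41, 26 and 118 reads in lf:YAP and 4, 0, 2 and 4 in WT, a log2 fold change of 4.27 ± 0.54. casp8, the initiator caspase of death receptor signalling, had 11, 16, 10 and 12 reads in lf:YAP and 3, 6, 1 and 6 in WT, a log2 fold change of 1.40 ± 0.42. tnfaip8l1, of the TNFAIP8 family, had 13, 14, 10 and 18 reads in lf:YAP and 3, 6, 6 and 3 in WT, a log2 fold change of 1.37 ± 0.38. The lf:YAP libraries of casp8 and tnfaip8l1 were close to each other, while dap1b in replicate 4 was 2.80 times its lowest library.

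The last 3 named members belong to the secretory pathway and its membranes. napaa encodes alpha-SNAP, which takes SNARE complexes apart after membrane fusion, and had 10, 16, 11 and 16 reads in lf:YAP and 2, 6, 4 and 4 in WT. ier3ip1, an endoplasmic reticulum protein gene, had 12, 14, 12 and 20 reads in lf:YAP and 4, 2, 2 and 10 in WT. Its 10 reads in WT replicate 4 were the most of any member in a single WT library, and without that library its log2 fold change was 2.04 in place of 1.49. TMCC1, a coiled-coil protein gene of the endoplasmic reticulum, had 11, 16, 10 and 55 reads in lf:YAP and 5, 5, 2 and 6 in WT. Its log2 fold change of 2.05 was 1.35 without lf:YAP replicate 4.

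The other 12 members carry clone, contig or mutant names and no role is given for them. si:ch211-51a6.2 had 71, 134, 41 and 110 reads in lf:YAP and 3, 3, 5 and 7 in WT, a log2 fold change of 4.02 ± 0.30. CR753876.1 had 38, 74, 10 and 39 reads in lf:YAP and 0, 2, 2 and 3 in WT. BX914200.1 had 1 read in WT, in replicate 3, and 21, 14, 15 and 14 reads in lf:YAP, a ratio of totals of 55.3 with a 95% counting interval of 9.57 to 2218. These 3 were all at 4 or more on the log2 scale. The median log2 fold change of the 12 was 2.98, against 2.84 for the secreted and cell surface group, 2.58 for enzymes, 2.97 for nuclear genes, 1.40 for cell death and 1.49 for membrane traffic. In RefSeq, si:ch211-81n22.1 is listed as nat8l2, and 42 members were found in its zebrafish table (assembly GRCz12tu). They lie on 22 chromosomes, with at most 4 on any chromosome.

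The members did not share a common order of the lf:YAP libraries. Summed over the 47, they reached 446, 558, 320 and 572 CPM in lf:YAP replicates 1 to 4, and 51.2, 59.8, 54.2 and 53.8 CPM in WT. Replicate 3, the library lowest in yap1, was the lowest lf:YAP library for 19 of 47 members, or 40.4%, with TMM scaling and for 37 of 47, or 78.7%, with total counts alone. Among the other 883 genes called higher, replicate 3 was lowest for 545, or 61.7%, with TMM scaling and for 747, or 84.6%, with total counts alone. The full yap1 order, replicate 4 over 2 over 1 over 3, was shown by 5 members with TMM scaling (notum2, gas6, angptl2b, chaf1a and chst6), or 10.6%, and by 15, or 31.9%, with total counts alone. The same order was shown by 240 of the 883 other genes, or 27.2%, with TMM scaling and by 385, or 43.6%, with total counts alone. Ranks among low counts carry more counting error than ranks of well-expressed genes.

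The choice of members bears on this pattern directly. A gene had to reach 10 reads in replicate 3 to be included, and without that demand 130 genes would have met the limits, 83 more. The level in replicate 3 over the mean of the other lf:YAP libraries had a median of 0.771 over members and of 0.765 over the other genes called higher. For the 10 members with log2 fold changes of 4 or more the median was 0.496, and for the other 37 it was 0.811. Within this strong set notum2, btk, chst6 and CR753876.1 dropped most in replicate 3, while BX914200.1 and prkacba had their lowest TMM-scaled level in replicate 4. With total counts alone prkacba was lowest in replicate 3, at 9.25 CPM against 10.7 CPM in replicate 4. The TMM factor was 0.867 for replicate 3 and 1.05 to 1.28 for lf:YAP replicates 1, 2 and 4. Exocrine pancreas markers summed to 18845 CPM in replicate 3, to 3704 to 4323 CPM in lf:YAP replicates 1, 2 and 4, and to 3388 to 14480 CPM in WT. The part of this in the library pattern was not tested.

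**Figure D3:**
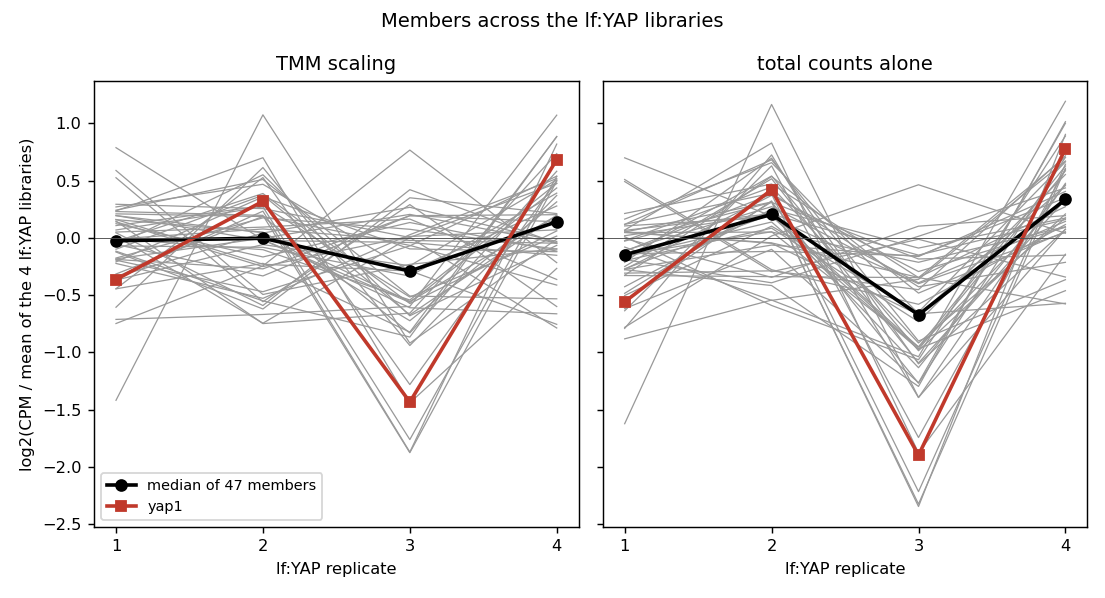
Levels across the 4 lf:YAP replicates, as log2 of CPM over the mean of these libraries, with TMM scaling on the left and total counts alone on the right. Grey lines are the 47 members, the black line with circles their median and the red line with squares yap1. yap1 is lowest in replicate 3 in both panels, whereas the members spread widely there with TMM scaling and mostly fall with total counts alone.

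Zebrafish keep many genes as a and b copies, which allowed each such member to be set beside its partner. Of 11 rows with a partner symbol, 3 passed the filter. prkacbb, the partner of prkacba, had 7, 13, 15 and 24 reads in lf:YAP and 14, 11, 9 and 9 in WT, with a log2 fold change of 0.23 ± 0.37 (adjusted p = 0.709, edgeR). napab, the partner of napaa, had 54, 57, 37 and 59 reads in lf:YAP and 43, 34, 27 and 59 in WT, with 0.17 ± 0.20 (adjusted p = 0.586). Both partners were detected in WT at a higher count than the member. The choice of members by low WT counts, and of these partners by the count filter, favours that order. Nothing is therefore read from it. Neither prkacbb nor napab passed the test. acta1a, described above, rose by 2.26 ± 0.52 (adjusted p = 0.0131), a call lost with limma-voom (adjusted p = 0.0950).

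Of the partners that failed the filter, nos2b had 0 reads in lf:YAP and 1 in WT, and prkcha had 10 in lf:YAP and 3 in WT. arntl1a had 5, 9, 4 and 9 reads in lf:YAP and 1, 3, 0 and 3 in WT, with no overlap between the groups. fgl2b had 8 reads in lf:YAP and 18 in WT, of which 14 were in WT replicate 4, and angptl2a had 3 reads in lf:YAP and 19 in WT. swap70a had 11 reads in lf:YAP and 9 in WT, and plppr2b had 4 in lf:YAP and 6 in WT. The difference in response between a member and its partner was not tested.

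**Figure D4:**
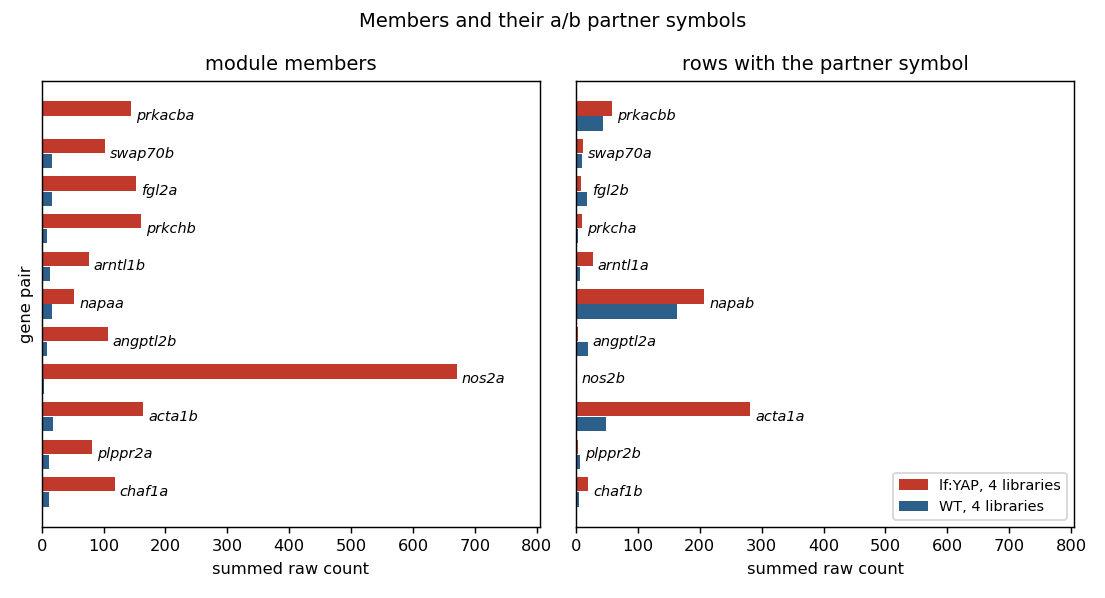
Summed raw counts of 11 members on the left and of the rows with the partner symbol on the right, with lf:YAP in red above WT in blue for each gene and axes from 0. chaf1b is another subunit of the same complex as chaf1a and not a copy of it. Only napab, acta1a and prkacbb reach more than 27 reads in lf:YAP among the partners, and nos2b is nearly at 0 beside 671 reads of nos2a.

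Genes next to members on the chromosome were examined in the RefSeq order of protein-coding genes, a comparison chosen after these data had been seen. Of 66 neighbours in the table, 27 passed the filter. Among these 8 were called higher (29.6%) and 1 lower (3.70%), beside 11.1% and 10.5% of all genes tested. zgc:64106, next to aqp7, had 208, 329, 171 and 282 reads in lf:YAP and 44, 39, 32 and 38 in WT, and rose by 2.45 ± 0.18 (adjusted p = 7.60e-06, edgeR). zgc:101583, next to btk, had 35, 31, 18 and 45 reads in lf:YAP and 5, 4, 6 and 10 in WT, and rose by 2.15 ± 0.30 (adjusted p = 0.000462). The gene of protein S, pros1, a relative of gas6 that also binds TAM receptors, lies beside gas6. It had 144, 249, 126 and 234 reads in lf:YAP and 49, 47, 51 and 28 in WT, and rose by 1.82 ± 0.25 (adjusted p = 0.000354).

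The remaining neighbours called higher were scamp4 beside chaf1a with 1.61 ± 0.39, tanc1b beside dap1b with 1.33 ± 0.27, tpmt.1 beside tpmt.2 with 1.08 ± 0.22, fbxw7 beside tmem154 with 0.94 ± 0.22 and gpatch11 beside eif2ak2 with 0.83 ± 0.28. tpmt.1 and tpmt.2 are similar copies whose reads may have been split. The call of gpatch11 (adjusted p = 0.0483) was lost in 13 of 15 alternatives, with an adjusted p of 0.125 without lf:YAP replicate 4. The neighbour called lower was tlcd4b beside plppr2a, which fell by 0.99 ± 0.15 (adjusted p = 0.000596). Neighbours of notum2, prkacba and nos2a did not pass the test or the filter, among them coq7 with 26 reads in lf:YAP and 17 in WT. For samd13, beside prkacba, the log2 fold change was 0.09 ± 0.33 (adjusted p = 0.864, edgeR), and for smn1, beside nos2a, it was 0.23 ± 0.24 (0.526). Counting strand is not stated, so reads of overlapping neighbours cannot be told apart.

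The pathways around the markers were then described from gene lists, without the members themselves. Of 32 listed Wnt inhibitors and feedback genes, 26 were in the table and 4 besides notum2 passed the filter. None of the 4 was called in either direction by edgeR, DESeq2 or limma-voom, 0 had an unadjusted p under 0.05, and their median log2 fold change was -0.02. axin2, a target and brake of Wnt signalling, had 24, 24, 22 and 24 reads in lf:YAP and 12, 17, 7 and 26 in WT, with 0.45 (adjusted p = 0.323, edgeR). The receptor-removing ligase gene znrf3 had -0.15 (0.797), and lgr4, an R-spondin receptor, had 0.11 (0.656). notum1a, the other Notum family gene of the list, had 4 reads in lf:YAP and 6 in WT.

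Of 15 tested genes of the nitric oxide and arginine list besides nos2a, 2 rose (13.3%, beside 11.1% of all tested genes) and 6 fell (40%, beside 10.5%). Both that rose were calmodulin genes, which the list also holds, and no enzyme or transporter gene among the 15 was called higher. The neuronal synthase gene nos1 had 1, 7, 9 and 6 reads in lf:YAP and 16, 17, 17 and 24 in WT, and fell by 1.85 ± 0.41 (adjusted p = 0.00680). The 6 tested neural markers had a median log2 fold change of -1.75, with 1 called lower. The part of neural tissue in the nos1 value was not tested. gch1, the first enzyme of the synthesis of tetrahydrobiopterin, a cofactor of nitric oxide synthases, fell by 0.93 ± 0.19 (adjusted p = 0.00413) to 102 ± 20 CPM in lf:YAP, against 195 ± 30 CPM in WT (SD, n = 4 each). The arginine transporter genes slc7a1a and slc7a2 fell by 1.13 ± 0.25 and 1.85 ± 0.45. The row SLC7A1, left out of the members by its family name, was not in this list and went the other way. It had 27, 133, 15 and 93 reads in lf:YAP and 2, 6, 4 and 8 in WT. arg2, an arginase, fell by 0.67 ± 0.18 and odc1, of polyamine synthesis, by 0.97 ± 0.32, the latter near the threshold (adjusted p = 0.0470, edgeR). The calmodulin genes calm2a and calm3b rose by 1.15 ± 0.17 and 0.80 ± 0.16. The calls of calm2a, calm3b, gch1 and nos1 held in all 15 alternatives. Over the fits that left out 1 library each, the number lower in this list ranged from 4 to 6, and the number higher stayed at 2.

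Among 29 tested genes of protein kinase A and cAMP signalling besides prkacba, 2 rose (6.90%) and 3 fell (10.3%), shares no higher than the 11.1% and 10.5% of all tested genes. prkacab, another catalytic subunit gene, had 19, 26, 11 and 24 reads in lf:YAP and 6, 5, 4 and 7 in WT, and rose by 1.62 ± 0.30 (adjusted p = 0.00223, edgeR). Its partner prkacaa had 113, 180, 84 and 162 reads in lf:YAP and 151, 154, 109 and 172 in WT, with -0.36 (adjusted p = 0.127). The regulatory subunit gene prkar1aa rose by 0.43 ± 0.14 (adjusted p = 0.0480). The number called higher was 1 in 12 of 15 alternatives, including without any library other than lf:YAP replicate 3. crema, a cAMP-responsive repressor gene, fell by 1.12 ± 0.20 (adjusted p = 0.00185). The adenylyl cyclase genes adcy2b and adcy9 fell by 0.99 ± 0.31 and 1.29 ± 0.35. The adcy9 call was lost without lf:YAP replicate 1 (adjusted p = 0.0514) or WT replicate 4 (0.0710), and without lf:YAP replicate 3 the number lower was 5. The adcy2b call was lost without any library other than lf:YAP replicate 1 and WT replicate 4, with an adjusted p up to 0.108, without WT replicate 2.

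Around btk, 9 other genes of Tec kinases and antigen receptor signalling passed the filter, and none was called in either direction by edgeR, DESeq2 or limma-voom, with 0 at an unadjusted p under 0.05. lyn, plcg2 and blnk, which act with BTK in B cells of mammals, had 0.46, 0.54 and 0.17 (adjusted p = 0.167, 0.201 and 0.760, edgeR). The related kinase gene tec had 10, 9, 14 and 20 reads in lf:YAP and 4, 7, 4 and 8 in WT. It was among 23 genes of the list that did not pass the filter. Of these, malt1 had 53 reads in lf:YAP and 12 in WT, and hck had 21 and 5. Others went the other way, with 14 and 29 reads for prkcbb and 7 and 17 for grb2a. Of 12 tested inflammation genes, 4 rose (33.3%, beside 11.1% of all tested genes), namely nfkb2, nfkbiab, socs3b and stat3, by 0.90, 0.87, 0.81 and 0.63. irf7 fell by 1.35 ± 0.41, a call lost without any 1 of 5 libraries (adjusted p up to 0.0971, without lf:YAP replicate 2), while without lf:YAP replicate 3 the list had 3 lower. The other 34 inflammation genes in the table did not pass the filter. Among them the cytokine gene il1b had 5 reads in lf:YAP and 0 in WT, and tnfa was at 0 in every library. Others differed in both directions: il34 had 59 reads in lf:YAP and 17 in WT, and ccl19a.1 had 39 and 10. By contrast cxcl12a had 23 reads in lf:YAP and 63 in WT, and socs1a had 18 and 57.

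**Figure D5:**
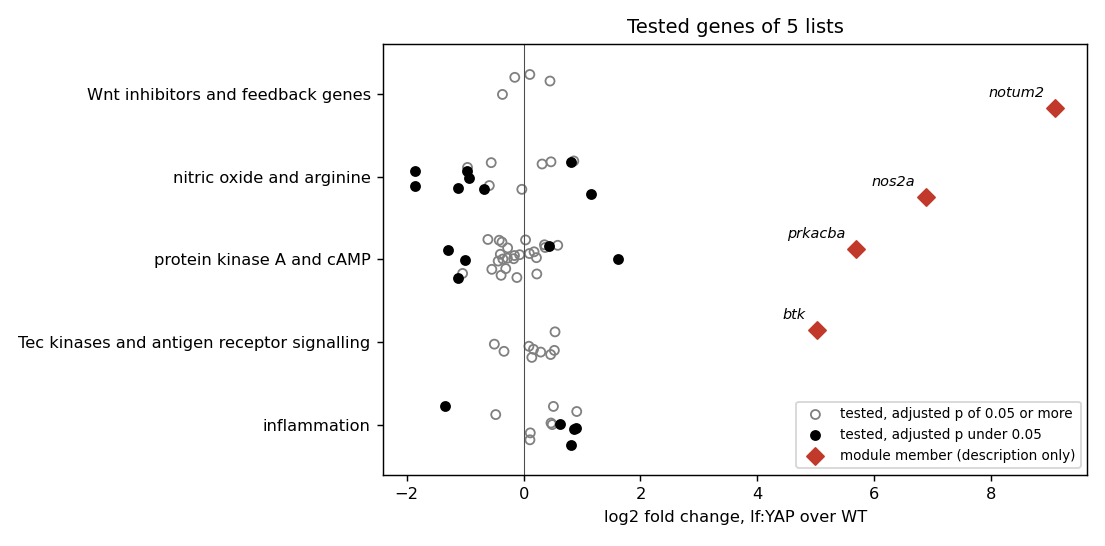
Log2 fold change, lf:YAP over WT, of each tested gene in 5 lists. Filled black points passed an adjusted p under 0.05 in edgeR, open points did not, and red diamonds are module members, shown as a description. notum2, nos2a, prkacba and btk were chosen by the counts of both groups and lie between 5.01 and 9.10. The other tested genes of their lists were not chosen this way and lie between -1.85 and 1.62.

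Lists of YAP targets and of other cell types were counted in the same way, beside 11.1% higher and 10.5% lower among all 8369 tested genes. Of 16 tested YAP and TEAD targets, a list that holds no member, 10 rose (62.5%) and none fell, with a median log2 fold change of 1.06. Of 16 bile duct markers 6 rose (37.5%) and none fell, and the list summed to 3264 to 5619 CPM in lf:YAP and 1786 to 1840 CPM in WT. No endothelial marker of 14 and no exocrine pancreas marker of 25 was called by edgeR, DESeq2 or limma-voom, and at an unadjusted p under 0.05 the number was 0 for both lists. Of 14 stellate and mesenchymal markers none rose and 3 fell (21.4%), and of 16 intestine markers none rose and 5 fell (31.2%). Of 14 epidermis markers 2 rose (14.3%) and 3 fell (21.4%), and of 6 neural markers none rose and 1 fell (16.7%). Where none rose by edgeR, none rose by DESeq2 or limma-voom either, and 0 were higher at an unadjusted p under 0.05. Where none fell, the same tools also called none lower, with 1 YAP target and 1 bile duct marker lower at an unadjusted p under 0.05. Among 3 tested blood cell and thrombocyte markers 1 rose, thbs1b, by 1.85 ± 0.36, while the globin genes hbae3 and hbbe2 did not pass (adjusted p = 0.103 and 0.161, edgeR). Among 3 endocrine pancreas markers 1 rose. Several of these small counts rest on single libraries: over the fits that left out 1 library each, the number lower ranged from 0 to 4 for stellate, 2 to 12 for intestine, 1 to 5 for epidermis and 0 to 2 for neural markers, with the highest intestine and epidermis counts without lf:YAP replicate 3 and the lowest intestine count without lf:YAP replicate 2. In the same fits the number higher ranged from 8 to 13 for YAP targets, 4 to 7 for bile duct, 1 to 3 for blood cell and thrombocyte, 0 to 2 for endocrine pancreas, 1 to 2 for epidermis, and 0 to 1 for endothelial, stellate and intestine markers. The part of any of these cell types in the levels of the members was not tested.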

How the data were processed

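The authors deposited 1 table with raw counts per gene and library, not normalized, and CPM values, per the file headers. Columns of log2 fold changes and p-values per gene that the authors deposited beside them were not used. The submitters' processing notes name the build danRer10, limma 3.40.6, featureCounts 1.6.0, HISAT2 2.1.0 and cutadapt 1.16. Annotation and strand setting: not given in the sources used here. Of 35117 rows, 6518 had no gene name. They held 0.657% to 2.55% of a library's counts and stayed out of library sizes and tests. The name prefixes of left-out families were read in either case of letters.

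All 8 libraries were fitted with edgeR 4.0.16 (R 4.3.3; TMM scaling, filterByExpr, robust quasi-likelihood test, Benjamini-Hochberg adjustment over 8369 genes, threshold 0.05). CPM values in the text are TMM-scaled and were computed from the counts; the deposited CPM were not used. The fit was tested on simulated data. The members, the 19 gene lists and the tests were chosen with earlier results of these data known. Since raw counts of both groups chose the members, no p-value of a member is given. Their fold changes, SE values and the number called describe them and support nothing. No SE in the text, of members or of other genes, came from the fit itself. For each gene the log2 value, without its sign, was divided by the root of the F statistic from the quasi-likelihood test. Every member with a gene name was named, with up to 4 tested genes per list by smallest p or where a result turned on them, partners formed by exchanging the final a and b, and adjacent protein-coding genes of RefSeq GRCz12tu. Ratios of totals have exact 95% intervals. Alternatives were other scalings and filters, DESeq2 1.42.0, limma-voom (limma 3.58.1), a replicate block, each library left out, and other limits for membership. The range of total counts in each group is given with the results, and intervals and floors cover counting error only. One item of the gene lists is not reported here.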

Additional observations from a re-analysis of the deposited data

Results flagged for a closer look

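Of 132 groups of 4 libraries examined, 7 had a lone library far from the others. Chance gives about 1 in 20 for normally spread values, a rate that does not hold for counts near 0. A group with 0 reads in all libraries but 1 is flagged by construction. In lf:YAP, TMCC1 stood apart in replicate 4 with 13.6 CPM, against 3.94 to 4.26 CPM in the other lf:YAP libraries, and klhl35 in replicate 2 with 5.84 CPM, against 3.94 to 4.26 CPM. The summed exocrine pancreas markers stood apart in lf:YAP replicate 3, with 18845 CPM. In WT, prkacba had its only reads in replicate 4, at 0.549 CPM, and BX914200.1 its only read in replicate 3, at 0.408 CPM. unm_sa911 was low in WT replicate 3, at 0.408 CPM, and CR753876.1 in WT replicate 1, at 0 CPM; each of these WT values rests on 0 to 2 reads.

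Rows without a gene name were outside every comparison, and 5 of them met both count limits of the module. The first had 169, 240, 28 and 331 reads in lf:YAP libraries, a sum of 768, against a sum of 13 in WT. The second had 68, 120, 26 and 158 reads in lf:YAP, a sum of 372, against 16 in WT. Another pair each had a sum of 165 in lf:YAP, against 20 and 17 in WT, and the last had a sum of 55 in lf:YAP, against 19 in WT. In the first 2 rows lf:YAP replicate 4 was highest and replicate 3 lowest, as for yap1. What these rows are is not given in the table.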

How the results depend on the processing

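The size of the module depends on its limits. A WT sum of 10 or less left 13 members and one of 40 or less gave 269; a demand of 5 reads in each lf:YAP library gave 290, and one of 20 reads left 8. Leaving 1 library out of the rule gave 48 to 146 members, with 130 without lf:YAP replicate 3 and 89, 90, 82 and 146 without WT replicates 1 to 4, since fewer libraries were then summed against the same limit. Limits on counts scaled to library size gave 47 members, of which 36 were shared. The median log2 fold change of members ranged from 2.52 to 2.78 over single libraries left out. Calls over all genes ranged from 705 to 1225 higher and from 603 to 1312 lower over those fits. With total counts alone 1537 genes were called higher and 517 lower, 13 neighbours were called higher, and replicate 3 was lowest for 37 members. Without a filter 1410 were higher and 1445 lower. Over single libraries left out, 7 to 9 neighbours and 1 partner were called higher; with limma-voom 0 partners were, where edgeR called 1 of the 3 tested, acta1a, at an adjusted p of 0.0131. The replicate numbers pair no samples per the labels, and same-numbered libraries deviated together with correlations of -0.05 to 0.04; with the number as a block 855 genes were called higher and 830 lower, 7 neighbours and 1 partner were called higher, and the median of members was 2.66. No log2 fold change of a member changed direction in any alternative run, which the choice of members by these counts makes nearly certain. Among the listed genes, partners and neighbours that were refitted one by one, no call changed direction either. At 10 reads, counting error alone limits what can be said of a single library.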
